A study of Mus musculus with 4 samples.

Results

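The genes described here are 10 chemokine ligands, chosen by name from the 27998 mouse genes of the count table: Ccl17 and Ccl22, Ccl2, Ccl3 and Ccl4, Ccl6 and Ccl9, Ccl24, Cxcl2 and Cxcl16. All 10 were detected in both libraries. They were measured by CITE-seq, which reads RNA and antibody tags of surface proteins from the same cell, in CD11b+ cells sorted from the spleens of mice aged 8 to 12 weeks. The steady-state mice were untreated, and the treated mice received 10 µg of GM-CSF, a myeloid growth factor, under the skin once daily for 3 injections and were analysed 24 h after the last. Each state was 1 library, and the number of mice and any pooling are not stated in the sources used here. No test between the states was therefore possible, and no p-value is given.

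Chemokines are small secreted proteins that direct the movement of leukocytes by binding G protein-coupled receptors. In the spleen they are made by monocytes, macrophages, dendritic cells (DCs), granulocytes and lymphoid cells, and several of their genes respond within minutes to inflammatory signals and to the handling of tissue. CCL17 and CCL22 attract T cells through CCR4 and are products of activated DCs and of macrophages and monocyte-derived cells exposed to GM-CSF or IL-4, whereas CCL2 attracts monocytes through CCR2 and CXCL2 attracts neutrophils through CXCR2.

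Several of the genes are neighbours. In GENCODE vM21 on the mm10 build, Ccl22 (chr8:94745590-94751699, plus strand) and Ccl17 (chr8:94810453-94812036, plus strand) lay 58754 bases apart. On chromosome 11, Ccl9 (chr11:83572919-83578636, minus strand) and Ccl6 (chr11:83587882-83593087, minus strand) were 9246 bases apart, and Ccl3 (chr11:83647844-83649355, minus strand) and Ccl4 (chr11:83662584-83664683, plus strand) 13229 bases apart. Ccl2 (chr11:82035571-82037453, plus strand) and Cxcl16 (chr11:70453983-70459984, minus strand) were on the same chromosome outside that cluster. Ccl24 (chr5:135569937-135573049, minus strand) and Cxcl2 (chr5:90903871-90905938, plus strand) were on chromosome 5.

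The RefSeq promoter table (GRCm38.p6) held an entry for 6 of the 10 genes, and 5 are shown because the results turn on them: the CCR4 ligand pair, the neighbours Ccl6 and Ccl9 whose levels differed least between the libraries, and Cxcl2, whose direction depended on which cells were compared. Each runs 5′ to 3′ on the gene's own strand and holds the bases ahead of the start that lie in no annotated exon. Capitals mark matches, on either strand, to the usual NF-kB motif, a STAT motif (TTCNNNGAA), an AP-1 motif (TGANTCA) or a TATA box (TATAAA), where N is any base.
Ccl17 (chr8:94810203-94810452, plus strand): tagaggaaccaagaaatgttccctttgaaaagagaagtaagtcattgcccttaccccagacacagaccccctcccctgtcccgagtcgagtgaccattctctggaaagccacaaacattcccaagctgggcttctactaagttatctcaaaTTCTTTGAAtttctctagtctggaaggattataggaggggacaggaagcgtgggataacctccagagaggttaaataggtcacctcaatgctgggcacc
Ccl22 (chr8:94745434-94745589, plus strand): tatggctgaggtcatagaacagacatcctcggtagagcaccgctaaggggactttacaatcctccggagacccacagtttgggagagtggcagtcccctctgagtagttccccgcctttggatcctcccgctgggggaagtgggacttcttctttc
Ccl6 (chr11:83593088-83593337, minus strand): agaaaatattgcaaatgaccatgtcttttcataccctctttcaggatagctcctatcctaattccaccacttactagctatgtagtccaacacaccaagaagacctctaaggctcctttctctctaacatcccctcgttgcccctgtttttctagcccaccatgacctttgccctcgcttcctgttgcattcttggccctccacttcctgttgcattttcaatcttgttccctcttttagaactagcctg
Ccl9 (chr11:83578637-83578886, minus strand): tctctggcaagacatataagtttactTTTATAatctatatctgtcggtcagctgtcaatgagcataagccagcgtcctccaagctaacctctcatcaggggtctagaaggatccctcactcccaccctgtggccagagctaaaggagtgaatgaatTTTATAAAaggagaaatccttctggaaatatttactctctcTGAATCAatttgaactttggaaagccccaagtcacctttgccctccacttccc
Cxcl2 (chr5:90903649-90903870, plus strand): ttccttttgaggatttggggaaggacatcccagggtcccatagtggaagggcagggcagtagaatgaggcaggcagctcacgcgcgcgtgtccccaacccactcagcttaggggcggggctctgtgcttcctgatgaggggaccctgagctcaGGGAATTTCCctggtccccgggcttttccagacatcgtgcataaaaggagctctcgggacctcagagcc

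The Ccl17 stretch held the STAT motif from base 99 to base 91 before the start, and the Cxcl2 stretch the NF-kB motif as GGGAATTTCC from base 97 to base 88. The Ccl9 stretch held the AP-1 motif from base 53 to base 47 and a TATA box from base 92 to base 87, which overlaps a reverse match, with a further reverse match upstream. No motif matched in the Ccl22, Ccl3 or Ccl6 stretches. Over 250 bases ahead of 32851 promoters in the table, the NF-kB motif matched in 0.980%, the STAT letters in 7.02%, the AP-1 letters in 6.75% and the TATA letters in 12.4%. The Ccl22 stretch ends 94 bases and the Cxcl2 stretch 28 bases short of the RefSeq start. These are letter matches and not binding sites.

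Some features of the libraries touch the results below. The steady-state library held 4827 cells with 22,358,903 UMIs (molecules counted by a unique identifier; median 3371 per cell), the GM-CSF library 6804 cells with 35,007,567 UMIs (median 4916), and 8 cell barcodes occurred in both. Levels are given as UMIs per 1000000 UMIs of the group (CPM), and a positive cell has at least 1 UMI of the gene. All 95% intervals, Poisson for levels and Clopper-Pearson for shares, cover counting error only. The 10 genes of an immediate-early and heat-shock list that rises during tissue handling (Fos, Jun, Egr1, Hspa1a and others) summed to 6422 CPM in the steady-state library and 1912 CPM in the GM-CSF library, and all 10 were at least 2-fold lower in the latter. The cell type labelled cDC2-A carried 5 of 5 NK cell genes (Ncr1, Klrb1c, Nkg7, Gzma, Klrd1; 18749 and 19545 CPM in sum) and cDC2 genes at 20 and 16 CPM, so the label is used here as a name only. Steady-state MoMacDC_c4 cells likewise held the NK cell genes at 11648 CPM, against 17 CPM in the GM-CSF library. The Macrophage and Activated DC labels had all of their listed markers, but the groups were small (25 and 22 cells, and 8 and 20 cells).

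In the sum over all cells, 4 of the 10 chemokine genes were at least 2-fold higher in the GM-CSF library, where 7.74% of the 11476 genes with at least 50 UMIs were, and 4 were at least 2-fold lower, where 10.1% of genes were. The higher genes were Ccl17, Ccl22, Ccl24 and Cxcl16. The lower genes were Ccl2, Ccl3, Ccl4 and Cxcl2. Ccl6 and Ccl9 stayed within 2-fold. The median of the 10 log2 ratios was -0.01, beside -0.09 over all genes tested. Together the 10 genes held 64.5% of all chemokine ligand UMIs in the steady-state library and 92.5% in the GM-CSF library. All chemokine ligands together were lower in the latter, at 2660 CPM in steady state and 1323 CPM after GM-CSF. Ccl5, which is not among the 10, went from 845 to 49.9 CPM. The larger share is therefore not a higher summed level.

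Ccl17 stood at 8 UMIs (0.358 CPM) in steady state and 391 UMIs (11.2 CPM) after GM-CSF, a 29.4-fold difference (95% interval 15.7 to 72.8). It was in 3 of 4827 cells and then in 207 of 6804, and since 1 cell held 6 of the 8 steady-state UMIs, the ratio without the top cells was 94.4. Ccl22, the second CCR4 ligand, had 3 UMIs (0.134 CPM) and 55 UMIs (1.57 CPM), a ratio of 10.1 (3.80 to 58.5). Without the top cell of each library fewer than 50 Ccl22 UMIs were left, so it was not called, at a ratio of 19.4. Ccl24, which encodes eotaxin-2, a ligand of the eosinophil receptor CCR3, went from 17 UMIs (0.760 CPM) to 188 UMIs (5.37 CPM), a 6.88-fold difference (4.30 to 12.4). A single cell held 91 of those 188 UMIs, and the ratio without the top cell of each library was 4.98. Cxcl16, a membrane-bound ligand of CXCR6, rose from 194 UMIs (8.68 CPM) to 650 UMIs (18.6 CPM), which was 2.14-fold (1.82 to 2.53).

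Among the genes that were lower, Ccl3 and Ccl4, which encode the MIP-1 chemokines, differed most. Ccl3 had 2983 UMIs (133 CPM) in steady state and 359 UMIs (10.3 CPM) after GM-CSF, 12.99-fold lower (11.7 to 14.6). Ccl4 had 3418 UMIs (153 CPM) and 430 UMIs (12.3 CPM), 12.4-fold lower (11.3 to 13.8). Cxcl2 fell from 5076 UMIs (227 CPM) to 2185 UMIs (62.4 CPM), 3.64-fold (3.46 to 3.83). Ccl2 fell from 544 UMIs (24.3 CPM) to 184 UMIs (5.26 CPM), 4.62-fold (3.91 to 5.50).

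The libraries also differed in how many cells of each type they held. With every cell type of the GM-CSF library weighted by its share of the steady-state UMIs, the Ccl4 ratio was 0.866 and no longer 2-fold, and the Ccl3 ratio was 0.345 in place of 0.0770. The group labelled cDC2-A made up 4.43% of steady-state and 0.294% of GM-CSF cells, and it held 63.9% of the steady-state Ccl4 UMIs and 28.8% of those of Ccl3. Ccl17 was 9.93-fold and Ccl24 4.20-fold higher under the same weights, and Ccl2 (0.133) and Cxcl2 (0.437) stayed lower. Cxcl16, at 1.89-fold, did not reach the limit.

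**Figure D1:**
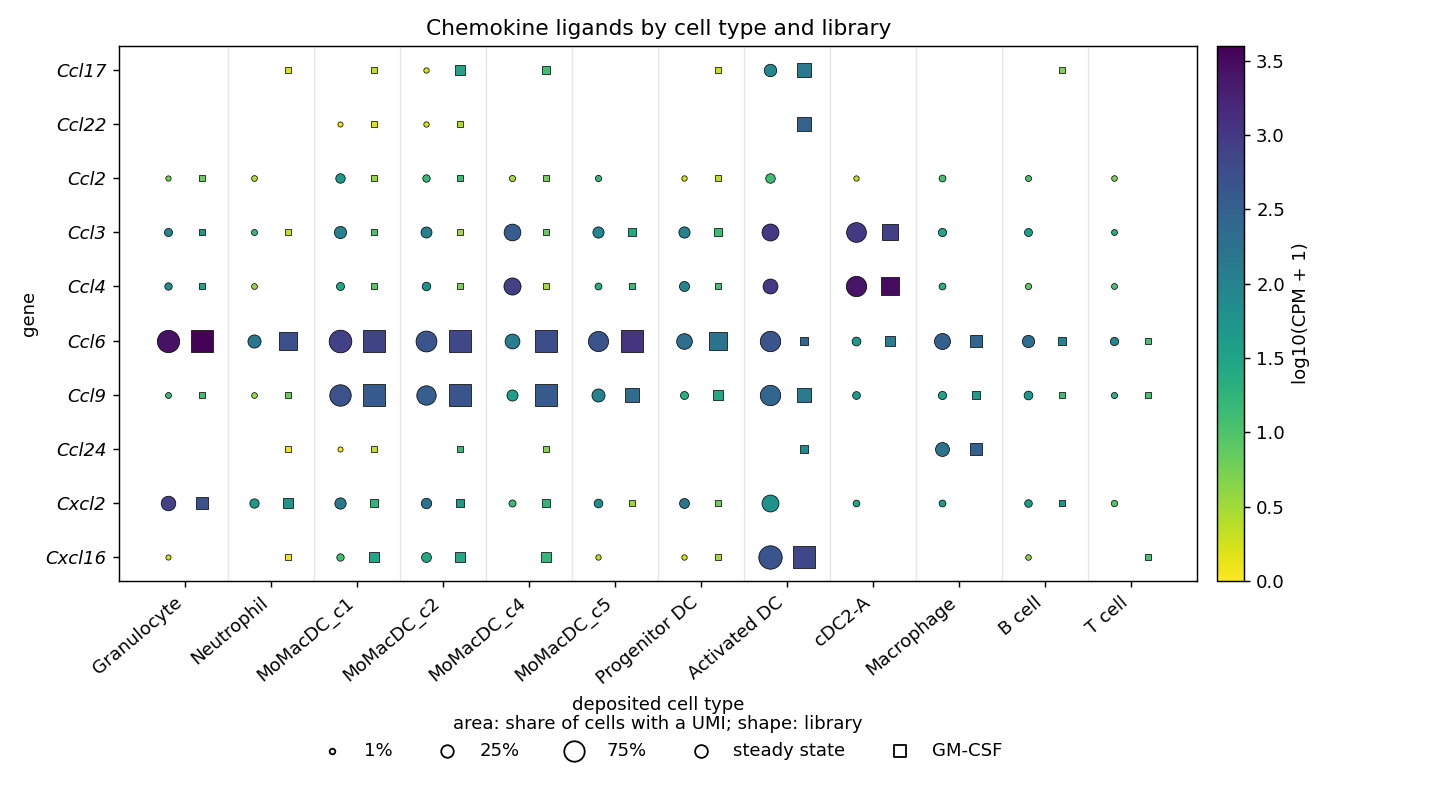
Levels of the 10 chemokine genes in 12 deposited cell types, with a circle for the steady-state and a square for the GM-CSF library. Symbol area grows linearly with the percentage of positive cells above a small fixed base, no symbol stands for 0 UMIs, and colour gives log10(CPM + 1); Ccl6 was in over 90.0% of granulocytes in both libraries, and Ccl3 and Ccl4 were highest in the group labelled cDC2-A.

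Several chemokine genes shared a leading cell type. Ccl17 was highest in Activated DCs, with 15 UMIs in 6 of 20 cells (134 CPM, 75.2 to 222) after GM-CSF and 7 UMIs in 2 of 8 cells (85.4 CPM, 34.3 to 176) in steady state. MoMacDC_c2 followed at 31.6 CPM (28.1 to 35.4) with 159 of 1471 cells positive (10.8%), and MoMacDC_c4 at 11.2 CPM (8.59 to 14.2). In MoMacDC_c2 of the steady-state library it had 1 UMI in 177 cells. Those 3 levels after GM-CSF differed beyond counting error, whereas MoMacDC_c4 and the next group, B cells with 1 positive cell of 79, did not. Most of the Ccl17 molecules came from MoMacDC_c2, since Activated DCs were few. Granulocytes had no Ccl17 UMI in either library (0 of 1929 and 0 of 1791 cells, which allows 0.816 and 1.24 CPM).

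Ccl22 was more concentrated. Activated DCs of the GM-CSF library had 33 of the 55 UMIs, in 7 of 20 cells (295 CPM, 203 to 415), and MoMacDC_c2 had 17 UMIs in 6 of 1471 cells (1.83 CPM). The first level was above the second beyond counting error. Of the 6 Ccl17-positive and 7 Ccl22-positive Activated DCs, 5 were positive for both. In the monocyte, macrophage and DC cells, 4 of 199 Ccl17-positive cells also had Ccl22. They were 4 of the 8 Ccl22-positive cells there, against 4.96% Ccl17-positive among cells without Ccl22.

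Cxcl16 was highest in the same Activated DCs, at 439 CPM in steady state (8 of 8 cells) and 672 CPM after GM-CSF (17 of 20 cells), with intervals of 308 to 608 and 528 to 842. MoMacDC_c2 and MoMacDC_c1 did not differ after GM-CSF (26.9 and 26.5 CPM). In MoMacDC_c1 the level was 11.1 CPM in steady state and 26.5 CPM after GM-CSF, a ratio of 2.38 (1.89 to 3.03), and in MoMacDC_c2 it was 26.3 and 26.9 CPM, a ratio of 1.01 (0.737 to 1.46). No UMI of it was found in granulocytes after GM-CSF.

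Ccl3 and Ccl4 were led by the group with NK cell genes. Ccl3 was in 149 of 214 cDC2-A cells in steady state (69.6%, 1001 CPM) and in 10 of 20 after GM-CSF (797 CPM). Ccl4 was in 159 of 214 (74.3%, 2545 CPM) and 11 of 20 (3172 CPM). In this group Ccl3 did not differ between the libraries beyond counting error (ratio 0.804, 0.587 to 1.06) and the Ccl4 ratio was 1.25 (1.07 to 1.44), but 1 of the 20 GM-CSF cells held 83 of its 199 Ccl4 UMIs. Without the top cell of each library the Ccl4 ratio was 0.825 (0.675 to 0.991), in the opposite direction, and the Ccl3 ratio 0.620 (0.421 to 0.862). Of the 149 Ccl3-positive steady-state cells, 123 were also Ccl4-positive. B and T cells, which should give a background, had Ccl4 in 2.55 and 1.72% of steady-state cells. Among steady-state groups of at least 20 cells MoMacDC_c4, the other group with NK cell genes, was second for both (358 and 799 CPM). The part of the NK cell genes in its level was not tested.

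In MoMacDC_c1, the largest monocyte group, Ccl3 went from 107 CPM (299 of 1277 cells) to 9.69 CPM (56 of 1342), 11.01-fold lower, and Ccl4 from 28.3 to 7.62 CPM, 3.69-fold lower. In Progenitor DCs Ccl3 was 7.62-fold and Ccl4 8.54-fold lower. Granulocytes differed less, with Ccl3 at 89.8 and 47.7 CPM (ratio 0.532, 0.425 to 0.658) and Ccl4 at 68.6 and 31.9 CPM (0.467, 0.356 to 0.603). Activated DCs had 79 Ccl3 and 83 Ccl4 UMIs among the 81937 UMIs of 8 steady-state cells, levels above those of steady-state MoMacDC_c4. They had none in 20 cells after GM-CSF, where 0 counts allow 26.9 CPM.

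Ccl2 was highest in MoMacDC_c1 in steady state, with 452 of its 544 UMIs in 156 of 1277 cells (12.2%, 47.5 CPM), and there it fell to 25 UMIs in 18 of 1342 cells (2.89 CPM), 16.2-fold lower. In MoMacDC_c2 it was 14.4 CPM and 12.02 CPM, a ratio of 0.821 (0.529 to 1.37), within counting error, as was the ratio of 1.15 (0.685 to 2.19) without the top cell of each library. After GM-CSF the leading group was therefore MoMacDC_c2, with 112 of 184 UMIs, and the next groups, granulocytes at 5.80 CPM and MoMacDC_c4 at 5.05 CPM, did not differ beyond counting error.

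Cxcl2 was a granulocyte gene in both libraries, at 797 CPM (690 of 1929 cells) and 507 CPM (398 of 1791), a ratio of 0.636 (0.594 to 0.680). The ratio was lower in the monocyte groups, at 0.112 (0.0937 to 0.133) in MoMacDC_c1 with 147 and 16.5 CPM, and at 0.277 (0.237 to 0.324) in MoMacDC_c2 with 165 and 45.8 CPM, and these intervals lay below that of granulocytes. In the type labelled Neutrophil it was 44.0 and 54.1 CPM and did not differ beyond counting error (1.22, 0.902 to 1.71). Handling response genes were lower after GM-CSF in granulocytes too (10950 and 5652 CPM), and since 5 of the steady-state granulocytes had at most 2000 such UMIs per 1000000, their part in the Cxcl2 levels was not tested there.

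Ccl6 and Ccl9 encode chemokines found in rodents that act through CCR1. Ccl6 was in 90.2 and 93.6% of granulocytes (2740 and 3848 CPM) and in 93.3 and 93.9% of MoMacDC_c1 cells (821 and 718 CPM). Beside those shares, B cells had it in 23.98 and 10.1% of cells and T cells in 8.05 and 2.56%, at median depths of 2976.5, 2741, 3747 and 2357 UMIs. In the Neutrophil type Ccl6 rose from 150 to 501 CPM (ratio 3.32, 2.85 to 3.93), and it was the 1 member called of the 2 with enough UMIs there, where 3.62% of 6489 genes were at least 2-fold higher and 2.48% lower. In granulocytes the ratio was 1.404 (1.37 to 1.44), and Ccl4 was the 1 gene of 5 tested at least 2-fold lower there, where 3.2% of 6257 genes were, and 0 were higher, where 7.29% were.

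Ccl9 was nearly confined to the monocyte, macrophage and DC cells, which held 96.9% of its UMIs in steady state and 99.2% after GM-CSF. It led in MoMacDC_c1 in steady state (495 CPM, 83.1% of cells) and in MoMacDC_c2 after GM-CSF (455 CPM, 81.2%), and granulocytes had 14.2 and 11.6 CPM. It thus parted from its neighbour Ccl6 in granulocytes. Of the Ccl9-positive cells of the monocyte bundle, 93.1% in steady state and 93.8% after GM-CSF also had Ccl6. Among the bundle cells without Ccl9, 65.2% and 72.0% had it. Ccl6-positive bundle cells were also deeper than negative ones, with medians of 7153 against 5101 UMIs in steady state and 6804 against 5265 after GM-CSF.

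Ccl24 was the gene of the Macrophage type, at 166 CPM (8 of 25 cells) and 317 CPM (6 of 22 cells), with overlapping intervals of 94.9 to 270 and 178 to 524. That type also had the highest level of its receptor gene Ccr3, at 623 CPM in steady state. Outside it, Ccl24 was nearly absent in steady state, with 1 UMI in 1277 MoMacDC_c1 cells. After GM-CSF, Activated DCs were second at 71.6 CPM, with 8 UMIs in a group of 20 cells. MoMacDC_c2 had 132 UMIs in 11 of 1471 cells and MoMacDC_c1 11 UMIs in 11 of 1342, so the level of MoMacDC_c2 rested on few cells.

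The study examined its monocytes, macrophages and DCs apart from the other types, as a MoMacDC bundle of 2135 steady-state and 3940 GM-CSF cells (MoMacDC_c1, c2, c4 and c5 and Progenitor DC). In this bundle 9 of the 10 genes had at least 50 UMIs, and Ccl22 did not. Of the 9, 3 were at least 2-fold higher after GM-CSF, where 8.66% of 10860 genes were, and 4 at least 2-fold lower, where 9.46% were. The median log2 ratio of the 9 was -0.11, beside -0.06 over all genes tested.

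**Figure D2:**
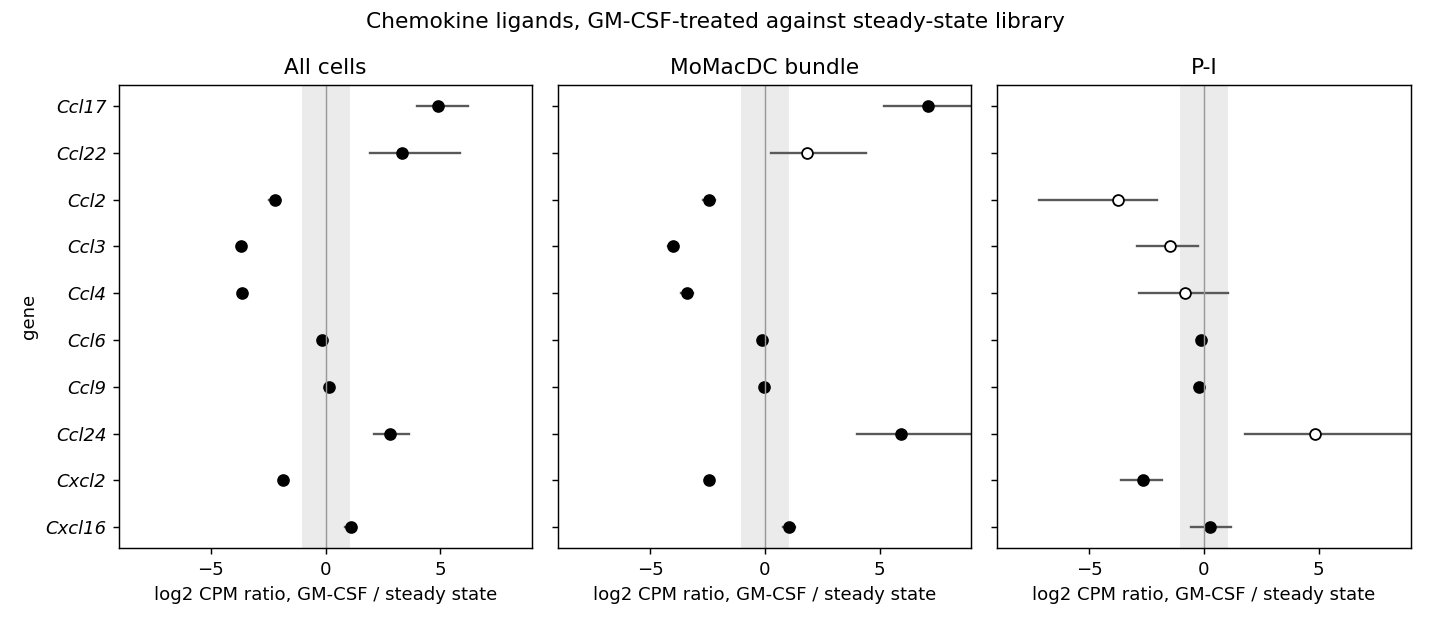
Log2 ratio of the GM-CSF over the steady-state level of each chemokine gene in all cells, in the MoMacDC bundle and in P-I monocytes, with 95% counting intervals cut at the axis ends. Open circles had fewer than 50 UMIs and the grey band marks ratios within 2-fold; Ccl17 lay at 7.10 and Ccl3 at -3.98 in the bundle.

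Ccl17 had 1 UMI (0.0669 CPM) in the 2135 steady-state bundle cells and 372 UMIs (13.7 CPM) in 199 of 3940 GM-CSF cells, a ratio of 137 (36.6 to 8132). Ccl24 had 1 UMI and 164 UMIs, a ratio of 60.5 (16.0 to 3597), with 91 of the 164 in 1 cell. The share of positive cells was 5.05% for Ccl17 and 0.685% for Ccl24, so most cells of the bundle had neither. Cxcl16 was in 98 and then 429 cells (10.2 and 21.2 CPM), a ratio of 2.08 (1.74 to 2.51).

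Ccl3 fell from 1647 UMIs (110 CPM, 22.2% of cells) to 189 UMIs (6.98 CPM, 3.12%), 15.7-fold. Ccl4 fell 10.3-fold (58.9 to 5.69 CPM), Ccl2 5.41-fold (34.0 to 6.28 CPM) and Cxcl2 5.38-fold (135 to 25.1 CPM). The handling response genes fell in the same bundle from 6182 to 1806 CPM, with 8 of 10 at least 2-fold lower. A link between them and the levels of these 4 genes was not tested. Ccl6 (659 and 613 CPM) and Ccl9 (369 and 365 CPM) differed by less than 1.10-fold.

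Among bundle cells with at most 2000 UMIs of handling response genes per 1000000 (424 steady-state and 2566 GM-CSF cells), Cxcl2 went the other way, with 15 UMIs (5.22 CPM) in steady state and 196 UMIs (10.8 CPM) after GM-CSF, a ratio of 2.01 (1.22 to 3.76). Ccl3 (0.193), Ccl4 (0.0518) and Ccl2 (0.273) stayed lower in those cells, and Cxcl16 (1.64) no longer reached 2-fold. In the steady-state cells above that limit Cxcl2 stood at 166 CPM and Ccl2 at 40.2 CPM, beside 5.22 and 7.999 CPM below it. Among cells above the limit Cxcl2 was still lower after GM-CSF. It thus went the other way only in the cells below the limit, a split chosen after seeing the data. Leaving out the bundle cells with a UMI of an NK cell gene kept the same 3 genes higher and the same 4 lower, with Ccl4 at 0.157.

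**Figure D3:**
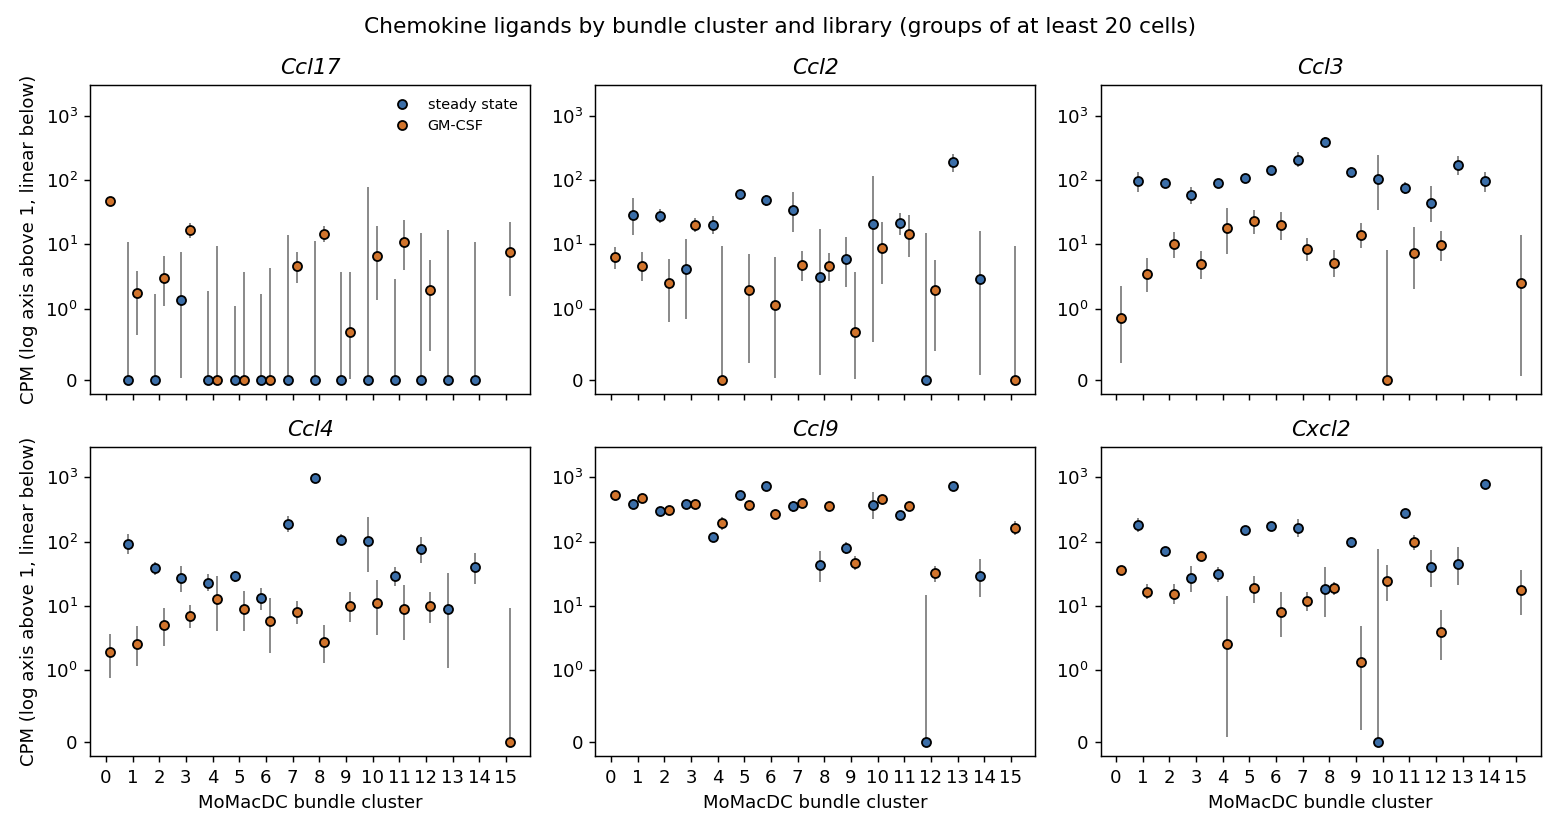
Levels (CPM, linear near 0 and logarithmic above) of 6 chemokine genes in the RNA clusters of the MoMacDC bundle that had at least 20 cells in a library. Ccl17 was highest in cluster 0 of the GM-CSF library, at 47.1 CPM, and Ccl9 in clusters 13 and 6 of the steady-state library, at 740 and 737 CPM.

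By RNA cluster of the bundle, 106 of the 199 Ccl17-positive GM-CSF cells (53.3%) were in cluster 0, which held 16.95% of the cells, and clusters 3 and 8 held 20.1% and 11.6%. In cluster 0 the gene was in 15.9% of 668 cells (47.1 CPM, 41.0 to 53.7). Since the clusters were built from RNA of the same cells, these are descriptions. Ccl2 and Cxcl2 had other leading clusters after GM-CSF, cluster 3 for Ccl2 (20.02 CPM, 36 of 512 cells) and cluster 11 for Cxcl2 (98.4 CPM, 19 of 77 cells). In steady state Cxcl2 was highest in clusters 14 and 11 (802 and 280 CPM), which also carried neutrophil genes. Cxcl16 after GM-CSF was highest in cluster 2 (56.9 CPM, 65 of 297 cells). Steady-state Ccl2 (187 CPM) and Ccl9 (740 CPM) were highest in cluster 13, of 29 cells, and Ccl3 (395 CPM) and Ccl4 (974 CPM) in cluster 8. Those 28 cells of cluster 8 were 78.6% positive for Ncr1, an NK cell receptor gene, which had no UMI in the same cluster after GM-CSF.

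The deposited subsets P-I to P-IV were gated on antibody tags within CD115-high cells, not on RNA: P-I are Ly6C+ classical monocytes, P-II non-classical monocytes, P-III the stage before GM-CSF-induced DCs (GMiDCs) and P-IV the CD301b+ GMiDCs. In the GM-CSF library they held 187, 8, 126 and 313 cells. P-II was not compared, because 0 counts in its 8 cells allow 108 CPM.

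**Figure D4:**
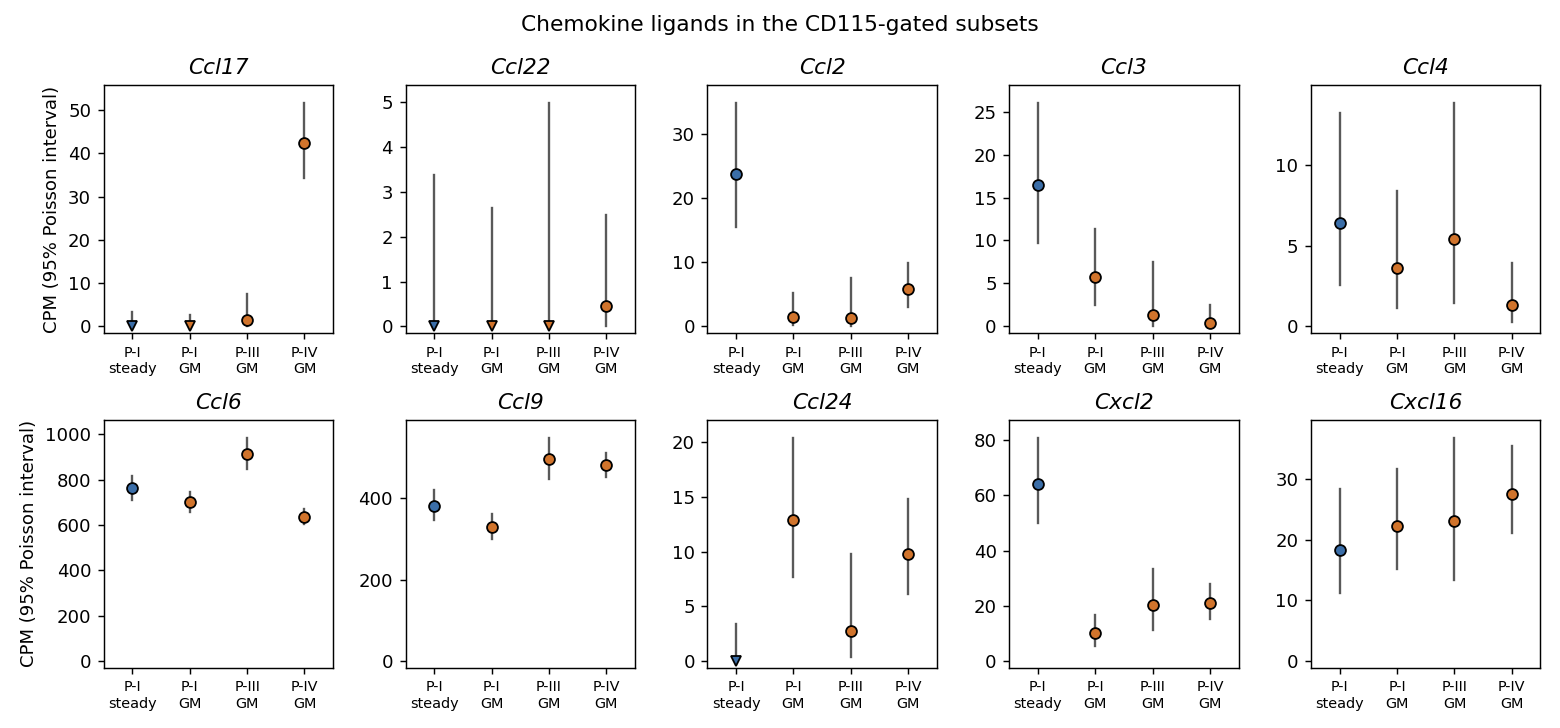
Level (CPM, with 95% Poisson intervals) of each chemokine gene in steady-state P-I cells and in 3 subsets from the GM-CSF library (P-I, P-III, P-IV), with a triangle for 0 UMIs. Ccl17 stood at 42.3 CPM in P-IV and had at most 1 UMI in each of the other groups.

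Among the subsets Ccl17 lay almost wholly in P-IV. It had 95 UMIs in 51 of 313 P-IV cells (42.3 CPM, 34.2 to 51.7; 16.3% of cells), 1 UMI in 126 P-III cells and none in 187 P-I cells. The P-IV level was 19.6-fold above P-I when 3 counts are taken for the 0 of P-I, and the 95% interval started at 15.7. The ratio to P-III was 20.9 (5.48 to 1247). Thinned to 1000 UMIs per cell, 2.57% of P-IV cells were positive, so the share depends on depth. Ccl22 had 1 UMI in P-IV and none in P-I or P-III.

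Of the 5 genes with at least 50 UMIs over P-IV and P-I, 2 were at least 2-fold higher in P-IV, where 3.63% of 6803 genes were, and 0 were lower, where 3.53% were. Beside Ccl17 this was Cxcl2, with 47 UMIs (20.9 CPM) and 14 UMIs (10.0 CPM), a ratio of 2.03 (1.13 to 4.10). Without the top cell of each group the Cxcl2 ratio was 2.58 on fewer than 50 UMIs, so it was not called. The handling response genes summed to 1254 CPM in P-IV and 944 CPM in P-I. Ccl9 was 482 and 331 CPM, 1.46-fold higher in P-IV (1.31 to 1.63), Ccl6 635 and 701 CPM, and Cxcl16 27.6 and 22.2 CPM. The median log2 ratio of the 5 was 0.54, beside 0.02 over all genes tested.

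Against P-III, Ccl17 was the 1 gene of 5 at least 2-fold higher in P-IV, where 1.91% of 6216 genes were, and 0 were lower, where 1.01% were. Ccl6 was 635 CPM in P-IV and 914 CPM in P-III, 1.44-fold lower (1.31 to 1.58). Ccl9 (482 and 496 CPM) and Cxcl2 (20.9 and 20.3 CPM) did not differ beyond counting error. Between P-III and P-I, 0 of the 2 genes with enough UMIs were 2-fold apart, where 1.11% of 5233 genes were higher and 2.71% lower. Ccl9 (496 and 331 CPM) and Ccl6 (914 and 701 CPM) were 1.502-fold (1.31 to 1.73) and 1.304-fold (1.18 to 1.44) higher in P-III.

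In P-I monocytes, the subset with over 100 cells in both libraries (139 and 187), Cxcl2 was the 1 gene of 4 called lower after GM-CSF, where 7.12% of 5774 genes were, and 0 were higher, where 4.99% were. It had 70 UMIs in 16 steady-state cells (64.1 CPM) and 14 UMIs in 8 GM-CSF cells (10.0 CPM), 6.21-fold lower (3.56 to 12.3). The handling response genes fell from 3174 to 944 CPM in the same cells, and with handling-low cells alone (68 and 166 cells) Cxcl2 had 2 and 12 UMIs, under the minimum of 50, at a ratio of 1.93 (0.515 to 21.3). Ccl2 went from 26 to 2 UMIs and Ccl3 from 18 to 8 UMIs, both under 50 in sum. Ccl24 had no UMI in steady-state P-I and 18 UMIs in 3 GM-CSF cells. Ccl6 (763 and 701 CPM) and Ccl9 (382 and 331 CPM) had ratios of 0.919 (0.837 to 1.01) and 0.866 (0.757 to 0.991).

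Of the 199 Ccl17-positive bundle cells, 51 were in P-IV and 144 (72.4%) lay outside the CD115-high gate, which left out 82.6% of all bundle cells. Among cells outside that gate that met the P-IV limits of Ly6C, MHCII, CD11c and CD301b, 118 of 1073 were Ccl17-positive. For the P-I limits 9 of 958 were, and for the P-III limits 10 of 839. Outside the gate, too, the share was highest for the P-IV limits.

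**Figure D5:**
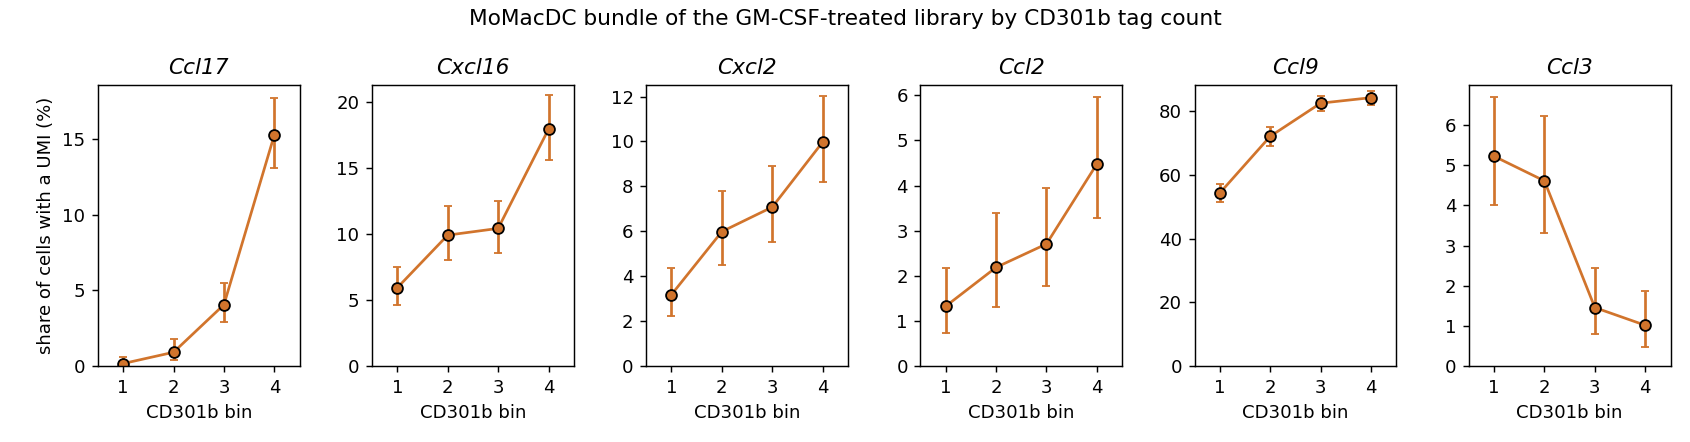
Percentage of positive cells for 6 chemokine genes in 4 bins of MoMacDC bundle cells ordered by CD301b tag count, GM-CSF library, with 95% Clopper-Pearson intervals. Ccl17 went from 0.177% to 15.3% and Ccl3 from 5.22% to 1.02%.

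The antibody tag for CD301b, the lectin that marks GMiDCs, ordered the chemokine genes in opposite ways. Bundle cells were put into 4 bins by tag count. From the lowest bin (at most 8 tag counts) to the highest (at least 111), Ccl17-positive cells went from 2 of 1130 (0.177%) over 0.922% and 4.06% to 150 of 982 (15.3%, 13.1 to 17.7). Cxcl16 went from 5.93 to 17.9%, Cxcl2 from 3.19 to 9.98%, Ccl2 from 1.33 to 4.48% and Ccl9 from 54.2 to 84.1%. Ccl3 ran the other way, from 5.22 to 1.02%. Cells of the top bin were deeper (median 7081 against 5976.5 UMIs), and 8 of the 10 genes had a higher share there than in the bottom bin. Of the 9 with at least 50 UMIs, 7 did, beside 84.1% of the 10279 genes with at least 50 UMIs. In cells thinned to 1000 UMIs the count was 7 of 10, and 7 of the same 9, beside 49.0% of those 10279 genes. Thinned, Ccl17 went from 0 to 2.57% and Ccl3 from 1.09 to 0.206%.

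Ccl17-positive cells had a median of 285 CD301b counts and negative cells 15. For MHCII the medians were 513 and 282, for CD11c 335 and 155, and for Ly6C 18 and 20. By 4 bins of the Ly6C tag, Ccl17-positive cells were 4.66%, 7.02%, 7.79% and 0.919% of cells, so the highest Ly6C bin, where classical monocytes lie, stood apart from the rest. Within cluster 0, cells with at least 21 CD301b counts were Ccl17-positive in 100 of 589 (16.98%, 14.03 to 20.3) and cells below in 6 of 79 (7.59%, 2.84 to 15.8). Within P-IV the positive cells had a median of 458 CD301b counts and the negative cells 187.5.

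Over 23 groups of cells (cell type by library, at least 20 cells), genes were ranked by the Pearson correlation of log2(CPM + 10) with each chemokine gene among 9751 genes. These correlations describe the groups, which share 2 libraries, and carry no test. Ccl3 and Ccl4 were most like each other (0.95), followed for Ccl4 by the NK receptor genes Klra3 and Klra8 (0.92 each). Ccl17, Ccl22 and Cxcl16 were like one another (0.87 to 0.88) and shared the most similar genes Stbd1 and Aldh1a2, the latter a retinoic acid synthesis enzyme of DCs (0.93 with Ccl17, 0.99 with Ccl22). Without GM-CSF Activated DCs, Ccl22 was at 0.83 with Aldh1a2 and 0.87 with Stbd1, but its level was at most 1.83 CPM in the groups left. Papss2, the third in its order, went from 0.90 to 0.16. Without the same group Cxcl16 went from 0.91 to 0.63 with Aldh1a2. Ccl17 went from 0.94 to 0.76 with Stbd1 and stayed at 0.92 with Aldh1a2. Ccl24 was most like Vcam1 (0.96), a red pulp macrophage gene, Ccl6 most like Emilin2 (0.91), Ccl9 most like Fam129b (0.92), Cxcl2 most like Clec4d (0.88) and Ccl2 most like Galnt9 (0.80).

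Another 30 chemokine ligand genes were in the table. Of these, 14 had no UMI and 6 had at least 50. In the whole library 0 of the 6 were at least 2-fold higher after GM-CSF, where 7.74% of 11476 genes were. Lower were 2, where 10.1% of genes were: Ccl5 (845 to 49.9 CPM) and Xcl1 (27.6 to 0.971 CPM). Both were highest in the group labelled cDC2-A. In the bundle 3 of 6 were lower, where 9.46% of 10860 genes were: Ccl5, Xcl1 and Cxcl10 (57.0 to 27.3 CPM). Steady-state bundle cells of MoMacDC_c4 and of cluster 8 also carried NK cell genes, and their part in these ratios was not tested. Cxcl10 was also lower in P-IV than in P-I (7.12 and 55.2 CPM), the reverse of Ccl17.

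Of the 11 chemokine receptor genes with at least 50 UMIs in the bundle, 7 were at least 2-fold lower after GM-CSF, where 9.46% of 10860 genes were. Ccr1, a receptor of CCL6 and CCL9, fell from 49.5 to 8.97 CPM and Cxcr2, the receptor of CXCL2, from 70.3 to 11.7 CPM. Ccr2, the receptor of CCL2, was 787 and 470 CPM and within 2-fold. Ccr4, the receptor of CCL17 and CCL22, had 3 UMIs in both libraries together, and Cxcr6, the receptor of CXCL16, was highest in T cells (154 CPM after GM-CSF).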

How the data were processed

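CITE-seq was run on CD11b+ spleen cells from mice at steady state and after GM-CSF, 1 library per state. The authors made the deposited UMI counts per gene and cell with Cell Ranger 3.0.2 on mm10 and filtered and clustered the cells with Seurat 3.6.0, per the submitters' processing notes. The deposited cell tables also give antibody tag counts, the percent of mitochondrial UMIs per cell as computed by the authors, cell types, RNA clusters and subsets, which were used as given. Cells had 200 to 5000 genes and at most 15% mitochondrial UMIs.

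Here, counts were summed per group of cells and divided by the summed UMIs (CPM). A gene was called when 2-fold apart after adding 0.5 to each sum, with at least 50 UMIs over both groups. This rule took the place of a test, because there was 1 library per state. Intervals (95%) were exact Poisson, Clopper-Pearson and, for ratios, conditional binomial, and a 0 was read against a limit of 3 counts. Depth was compared by thinning cells to 1000 UMIs, and doublets were called with Scrublet in Scanpy as an alternative (2.92% and 2.73% of cells) and kept otherwise. Motifs were searched in the RefSeq promoter table (GRCm38.p6). The scripts used Python 3.11.15, NumPy 2.4.6, SciPy 1.17.1, pandas 2.3.3, Scanpy 1.11.5 and matplotlib 3.10.9 and were tested on simulated data. All 10 ligands are described; other genes were named by the rule of the 3 most alike, by the receptor and ligand lists, or as markers. The genes and the lists were chosen with earlier results of these data known. The result for 1 receptor gene is not reported here.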

Additional observations from a re-analysis of the deposited data

Results flagged for a closer look

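The ratio of Ccl6 between the libraries pointed in opposite directions in 2 cell types. It was 4.75 in MoMacDC_c4, from 120 CPM (54 UMIs in 43 cells) in steady state to 576 CPM (3306 UMIs in 595 cells) after GM-CSF. It was 0.177 (0.00296 to 0.686) in T cells, from 86.7 CPM (63 UMIs in 174 cells) to 10.3 CPM (1 UMI in 39 cells). The difference between the cell types was not tested, since each value came from 1 library. The T cell shares of Ccl6-positive cells, 8.05 and 2.56%, were below the shares in granulocytes (90.2 and 93.6%). Steady-state MoMacDC_c4 cells carried NK cell genes at 11648 CPM, against 17 CPM after GM-CSF, and their part in the Ccl6 ratio was not tested.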

How the results depend on the processing

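Of 93 alternative counts, 79 stayed within 1.5 times the reported count and 14 did not. Most were counts of chemokine genes called. The rest counted genes that kept their highest group, their order by CD301b or their most-like gene. Of 332 alternative ratios of single genes, 267 stayed within the counting interval of the reported ratio, 62 moved out of it and 3 reversed direction. With cells thinned to 1000 UMIs, 1 gene (Cxcl16) was higher after GM-CSF in the whole library, 0 in the bundle, 0 in P-IV over P-I and 0 in P-IV over P-III, and 0 were lower in P-I. Fewer genes then reached 50 UMIs (7 in the whole library and in the bundle, 2 in each subset comparison), and Cxcl16 in the bundle was at 1.94. Without the top cell of each group, 1 gene (Ccl17) was higher in P-IV than in P-I. With a minimum of 20 UMIs, 2 genes (Ccl17, Ccl24) were higher in P-IV than in P-III and 3 (Ccl2, Ccl3, Cxcl2) lower in P-I after GM-CSF. With the subsets' tag limits applied regardless of CD115, 1 gene (Ccl3) was lower in P-IV than in P-I. Under the same limits 5 (Ccl17, Ccl2, Ccl24, Cxcl2, Cxcl16) were higher and 1 (Ccl3) lower in P-IV than in P-III. In P-I 4 (Ccl2, Ccl3, Ccl4, Cxcl2) were then lower after GM-CSF. These limits took in 1386 P-IV and 965 P-III cells, in place of 313 and 126. The share over all genes was not computed under these alternatives, so the counts of genes called have no background here. By Spearman's in place of Pearson's correlation, 2 of 10 genes kept the same most-like gene. In cells low in handling response genes, an alternative chosen after seeing the data, 0 of the 2 genes with enough UMIs were lower in P-I. The Cxcl2 ratio turned to 1.81 in all cells and 2.01 in the bundle. The value for all cells compares unlike mixtures of cell types, since few steady-state granulocytes lay below the limit. In P-I the ratio was 1.93, on 2 and 12 UMIs with an interval of 0.515 to 21.3. The cause of the changes in this section was not tested. No paired analysis was possible because each state was 1 library.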

Other observations

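The 8 P-II cells of each library, the subset gated as non-classical monocytes, were too few for a level, since 0 counts allow 70.6 CPM in steady state and 108 CPM after GM-CSF. Steady-state P-III and P-IV held 12 and 7 cells, and neither had a Ccl17 UMI.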
